A study of Mus musculus with 14 samples.

Results

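The receptors for serotonin, noradrenaline and acetylcholine were examined as 44 genes, chosen by their symbols out of 20492 gene symbols in the deposited tables of cortex and hippocampus. They comprised 14 serotonin receptor genes (Htr), 9 adrenergic receptor genes (Adra and Adrb), 5 muscarinic acetylcholine receptor genes (Chrm) and 16 nicotinic acetylcholine receptor subunit genes (Chrna to Chrng). Levels are FPKM, fragments scaled to transcript length and to the number of mapped fragments, which allow genes to be compared with each other within a table. A gene's level is the sum over its coding-sequence rows.

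All samples came from C57BL/6 mice aged 3 months and were total RNA of whole tissue. The control groups, labelled Con in the tables, held 4 cortex and 3 hippocampus samples. The TRF2-depleted groups, labelled TRF2, held 3 samples of each tissue, and the series' design text gives Dcx, known from immature neurons, as the driver of Cre. TRF2, the product of Terf2, is a telomere-binding protein. The hippocampus table also carries a condition named DKO, whose alleles and samples no label describes, so its values are given under that name alone. A further TRF2-depleted sample, whose labels name both tissues, was placed in no group, and the sources used here do not say if it entered the pooled values.

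Serotonin, noradrenaline and acetylcholine reach cortex and hippocampus along axons of neurons that lie mainly elsewhere, in the raphe nuclei, the locus coeruleus and the basal forebrain. The receptors are made by the neurons, glia and vessels that receive these axons. Most are G protein-coupled. The Gq class activates phospholipase C, the Gi class lowers cyclic AMP and the Gs class raises it. Nicotinic receptors and the Htr3 receptors are ion channels built of 5 subunits.

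The authors' deposited tables hold a single pooled value for each row and condition. No replicate error can be given for any level, the read depth is unknown, and whether neighbours in an order of levels differ beyond their spread cannot be told. The test is the authors' own, made by Cuffdiff for each row, and rows with a deposited q of at most 0.05 count as called. Terf2, summed over its 3 rows, had 3.59 FPKM in control cortex and 0.202 FPKM in cortex with depletion. It had 2.01, 0.883 and 0.753 FPKM in control, TRF2-depleted and DKO hippocampus. In cortex the authors tested only its most abundant row, which was not called (q = 0.576 in the authors' deposited table). They tested none of its rows in hippocampus, so a lower level of Terf2 was called in neither tissue. The labelled tissues carried their markers: cortical layer genes summed to 148 FPKM in control cortex and 64.8 FPKM in control hippocampus, and CA pyramidal neuron genes to 139 and 308 FPKM. The tables were scaled separately, so levels set across the tissues were not tested. In whole tissue, fewer cells of a type and less RNA per cell cannot be told apart.

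Of the 44 genes, 30 reached 0.2 FPKM in at least 1 condition of cortex and 30 in hippocampus, with 28 doing so in both tissues and 12 in neither. The cortex gene just inside this minimum was Htr1d (highest value 0.265 FPKM) and the one just outside Chrna1 (0.1998 FPKM). In hippocampus they were Adrb3 (0.236 FPKM) and Chrna3 (0.190 FPKM). Adra2a in cortex, and Adrb3, Chrnb2 and Htr4 in hippocampus, passed only through the conditions in which they were higher, so their differences are partly set by the minimum.

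A few receptors, with Chrm1 and Adra1d at the head, made up much of the signal in every condition. Summed over the 44 genes the level was 108 and 103 FPKM in control and TRF2-depleted cortex and 114, 117 and 123 FPKM in control, TRF2-depleted and DKO hippocampus. The 5 most abundant genes held 50.5% of the sum in control cortex and 54.0% in control hippocampus. Muscarinic receptors gave 33.2% and 32.6% of it, adrenergic receptors 30.4% and 27.6%, serotonin receptors 22.4% and 26.4%, and nicotinic subunits 14.0% and 13.4%. Grouped by textbook coupling, the 9 Gq genes held 48.5% of the sum in control cortex and 51.6% in control hippocampus. Gs-coupled receptors, 6 genes, held 12.1% and 7.80%. Htr5b was left out of the coupling classes.

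**Figure D1:**
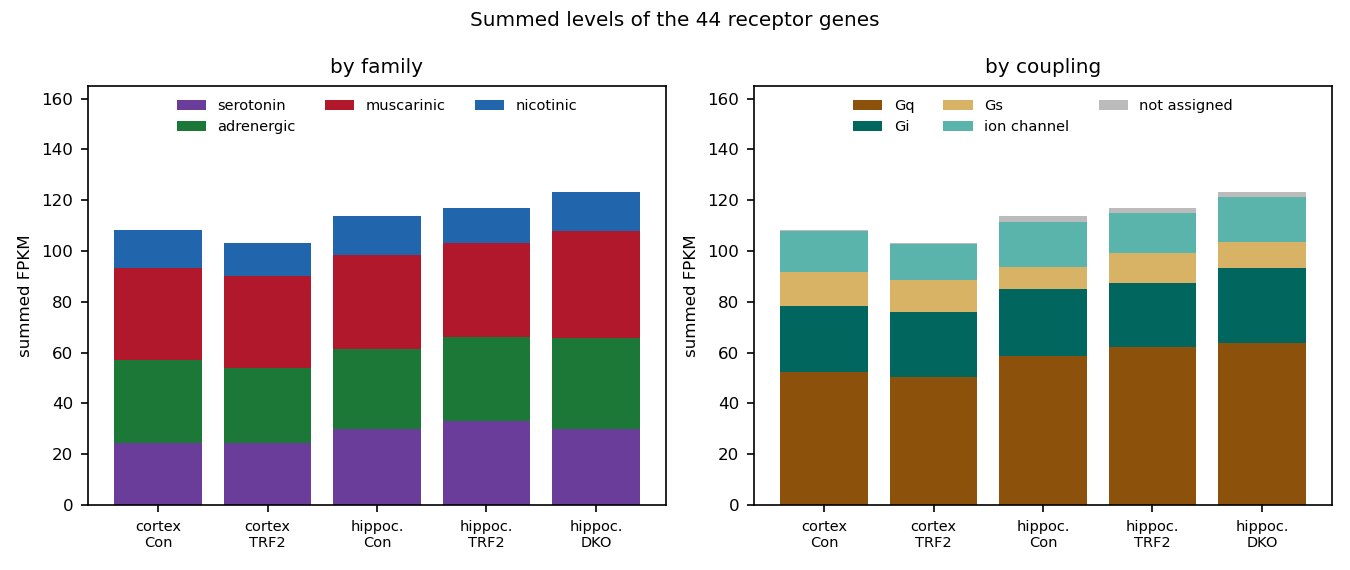
Stacked bars of the summed FPKM of the 44 receptor genes in the 5 conditions, by family on the left and by coupling class on the right, with 1 pooled value per gene and condition. The totals lie between 103 and 123 FPKM, and the Gq class is the largest block in each bar.

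Among the muscarinic receptors, Chrm1, the main Gq-coupled receptor of forebrain pyramidal neurons, was the most abundant of all 44 genes in all 5 conditions. It had 16.2 FPKM in control cortex, 17.0 FPKM in cortex with depletion and 20.3, 19.4 and 21.9 FPKM in control, TRF2-depleted and DKO hippocampus (chromosome 19 from 8664005 to 8684905, mm10). Chrm3, also Gq-coupled, had 6.23 and 6.69 FPKM in cortex and 8.32, 8.70 and 10.3 FPKM in hippocampus, in the same order of conditions, which is kept below. DKO was the highest hippocampal condition for both genes.

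Chrm4, a Gi-coupled receptor, was at 10.2 and 8.68 FPKM in cortex and 6.05, 5.94 and 6.55 FPKM in hippocampus. Chrm2, the Gi-coupled autoreceptor of cholinergic terminals, was at 3.26 and 3.65 FPKM in cortex and 1.39, 1.43 and 1.73 FPKM in hippocampus. Both had a higher level in cortex than in hippocampus. Chrm5 was the lowest of the family except in TRF2-depleted hippocampus, where Chrm2 was lower. It was at 0.0413 and 0.0331 FPKM in cortex but 1.04, 1.77 and 1.56 FPKM in hippocampus.

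The adrenergic family was led by Adra1d, a Gq-coupled receptor, with 12.2 and 9.66 FPKM in cortex and 17.2, 17.6 and 19.0 FPKM in hippocampus, the second highest of the 44 genes throughout. Its relatives differed in where they were found. Adra1a had 3.39 and 3.65 FPKM in cortex and 0.464, 1.31 and 0.763 FPKM in hippocampus. Adra1b had 4.03 and 3.47 FPKM in cortex and 0.404, 0.683 and 0.867 FPKM in hippocampus. Both were thus abundant in cortex and near the minimum in control hippocampus, unlike Adra1d.

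Of the Gi-coupled alpha2 receptors, Adra2c was at 3.69 and 3.39 FPKM in cortex and 6.97, 6.31 and 7.85 FPKM in hippocampus. Adra2a, the autoreceptor of noradrenergic neurons, was at 1.04e-05 and 0.634 FPKM in cortex and at 0.686, 0.292 and 0.893 FPKM in hippocampus, and the authors tested it in none of the comparisons. Adrb1, the main Gs-coupled beta receptor of forebrain, was at 8.94 and 8.002 FPKM in cortex and 5.05, 5.86 and 5.61 FPKM in hippocampus. Adrb3, the beta receptor of fat cells, had its highest value at 0.296 FPKM, and Adra2b peaked at 0.0631 FPKM.

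Htr2a, the Gq-coupled receptor on which classical psychedelics act, was the leading serotonin receptor of cortex, at 7.04 and 8.34 FPKM against 2.62, 2.90 and 3.08 FPKM in hippocampus. Htr2c, a Gq-coupled receptor known both from neurons and as a receptor of the choroid plexus, led in control hippocampus, at 8.20, 9.61 and 6.33 FPKM against 3.25 and 1.36 FPKM in cortex. Of these 2 genes Htr2a was thus the higher in cortex and Htr2c the higher in hippocampus. Htr1a, the Gi-coupled receptor that serves as autoreceptor on raphe neurons and as postsynaptic receptor in hippocampus, had 2.34 and 2.48 FPKM in cortex and 6.04, 6.09 and 6.499 FPKM in hippocampus.

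Htr1b, the Gi-coupled receptor of axon terminals, was at 1.85 and 2.01 FPKM in cortex and 2.42, 2.60 and 2.77 FPKM in hippocampus. Htr5a, also Gi-coupled, had 3.24 and 3.43 FPKM in cortex and 1.72, 2.03 and 1.97 FPKM in hippocampus. Its relative Htr5b, which human cells lack as a working gene, had 0.286 and 0.490 FPKM in cortex and 2.17, 2.08 and 1.96 FPKM in hippocampus. The Htr5 pair was therefore another with opposite tissue order. Htr1f lay between 0.662 and 1.19 FPKM in all conditions.

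Among the Gs-coupled serotonin receptors, Htr6 was at 1.63 and 1.67 FPKM in cortex and 1.04, 1.61 and 1.93 FPKM in hippocampus. Htr7 was at 1.69 and 1.69 FPKM in cortex and 1.505, 2.18 and 2.001 FPKM in hippocampus. For both, control was the lowest hippocampal condition. Htr4 had 0.263 and 0.366 FPKM in cortex and 0.709, 1.44 and 0.0915 FPKM in hippocampus, so the DKO value was the lowest of the 5, and none of these values was tested by the authors. Htr3a, the ion channel subunit of a class of cortical and hippocampal interneurons, was at 1.27 and 1.17 FPKM in cortex and 2.51, 1.84 and 2.15 FPKM in hippocampus. Its partner subunit Htr3b was listed at 0 in 4 conditions and at 0.0387 FPKM in control hippocampus.

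The nicotinic family was carried by a handful of neuronal subunits. Chrna7, which forms channels of a single subunit type, was at 3.58 and 3.43 FPKM in cortex and 7.44, 6.74 and 7.31 FPKM in hippocampus. Chrna4, the alpha subunit of the common heteromeric receptor of brain, was at 4.10 and 2.78 FPKM in cortex and 3.23, 4.01 and 4.05 FPKM in hippocampus. TRF2-depleted cortex was the lowest of the 5 conditions for Chrna4, and control the lowest of the hippocampal ones.

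Chrnb2, the usual partner of Chrna4, was at 5.02 and 5.05 FPKM in cortex and 2.01, 0.00274 and 1.30 FPKM in hippocampus. The value in TRF2-depleted hippocampus was thus close to 0 in a single pooled estimate. In GENCODE M21 an exon of Chrnb2 overlaps an exon of Adar, which lies on the opposite strand, and strand use in counting was not given in the sources used here, so reads of the pair may not have been separable. Adar was at 11.98, 8.26 and 10.3 FPKM in control, TRF2-depleted and DKO hippocampus, again lowest in TRF2-depleted, and its part in the Chrnb2 value was not tested. Chrna5, an accessory subunit, was at 0.864 and 0.637 FPKM in cortex and 1.56, 1.44 and 1.39 FPKM in hippocampus.

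Subunits of the muscle receptor and of peripheral and sensory receptors were scarce. Chrnd and Chrng, subunits of the muscle receptor, were listed at 0 in all 5 conditions, and Chrna9, known from hair cells, in 4 of them. Of the 16 nicotinic genes, 9 stayed under 0.2 FPKM in both tissues. Chrna3 and Chrnb4, the subunits of autonomic ganglia and medial habenula, reached at most 0.190 and 0.109 FPKM. Chrnb1, the beta subunit of muscle, was at 0.320 and 0.232 FPKM in cortex and 0.218, 0.606 and 0.569 FPKM in hippocampus. Chrnb3 was at 0.627 and 0.391 FPKM in cortex and under 0.1 FPKM in hippocampus, where it was at 0.0958 FPKM in control.

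**Figure D2:**
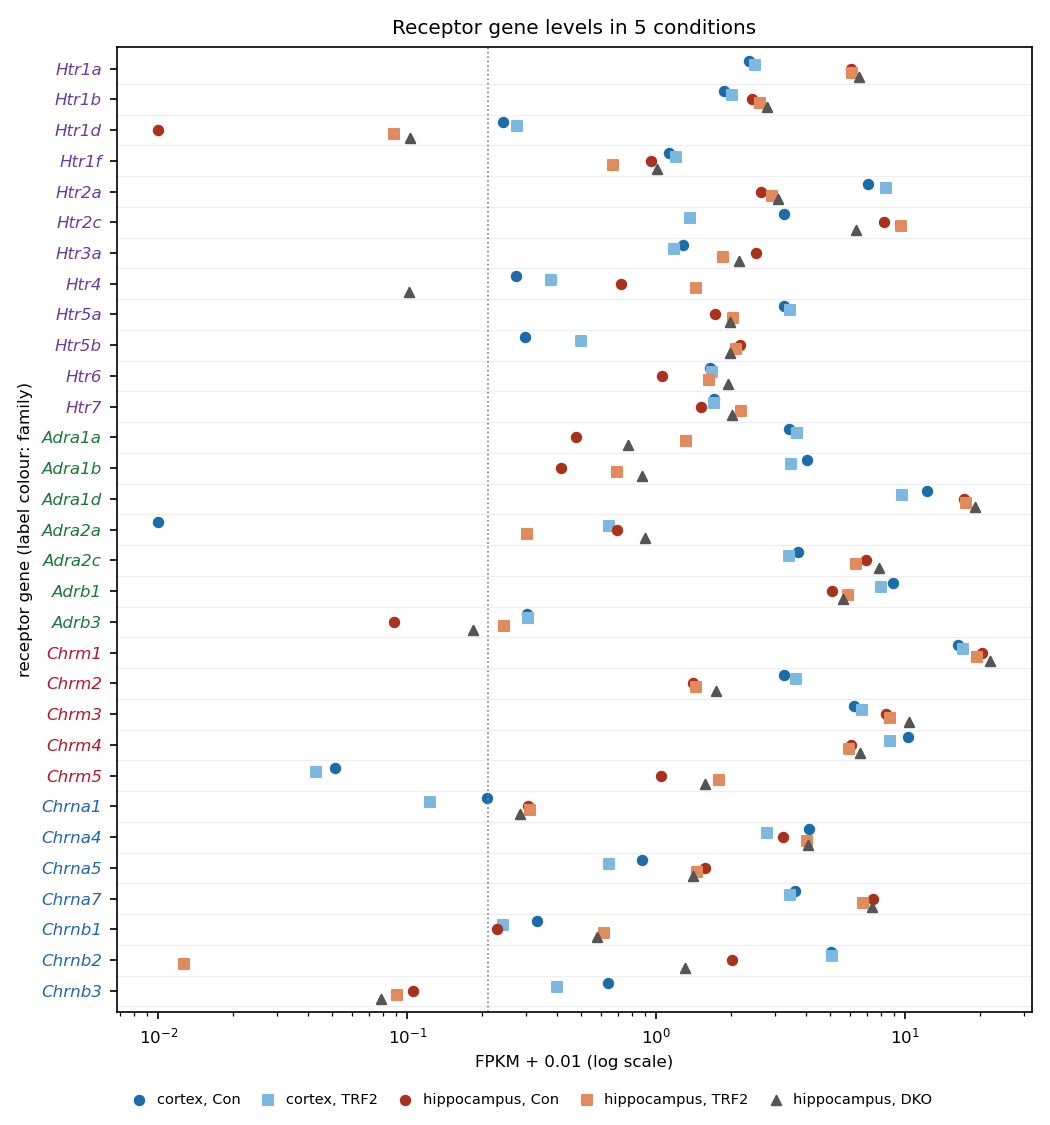
Level of 31 receptor genes with at least 0.2 FPKM in a condition of either tissue, as FPKM plus 0.01 on a log axis, with 1 point per condition and the dotted line at the minimum. Chrm1 and Adra1d lie farthest to the right, and Chrnb2 in TRF2-depleted hippocampus and Adra2a in control cortex lie far to the left of their other points.

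Several members lie beside each other in the genome, with unequal levels. In GENCODE M21 (GRCm38, the build mm10), Chrna5, Chrna3 and Chrnb4 follow each other on chromosome 9 with gaps of 2.33 and 1.59 kb. Chrna5 was the one of the 3 that passed the minimum. Chrnb3 and Chrna6 on chromosome 8 are 3.48 kb apart, and Chrna6 did not exceed 0.128 FPKM. Htr3a and Htr3b on chromosome 9 are 23.9 kb apart, and Chrnd and Chrng on chromosome 1 are 4.59 kb apart. Exons of 8 members overlap those of another annotated gene, always on the opposite strand (Adra1d, Adrb3, Chrm1, Chrm2, Chrna10, Chrnb2, Htr1b and Htr2b), and their levels are less certain for that reason. The deposited locus of Adra1d also spans 10 other coding genes, that of Chrna4 spans 2, and those of Chrm4, Chrnb2 and Chrne span 1 each.

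The control tissues shared most of their receptors, with unequal levels for some. Of 26 receptor genes with at least 0.2 FPKM in both controls, 13 were higher in cortex and 13 in hippocampus. At least a 2-fold difference was seen for 5 in cortex (Adra1a, Adra1b, Chrm2, Chrnb2 and Htr2a) and 5 in hippocampus (Chrna7, Htr1a, Htr2c, Htr4 and Htr5b). These 10 are 38.5% of the 26, where 14.6% of all 12783 genes at the same minimum differed that far. The share is a description, since the tables were scaled separately and the controls have no replicate values. Adra1b was 9.98-fold and Adra1a 7.30-fold higher in control cortex, and Htr5b was 7.57-fold higher in control hippocampus. Chrm5, below the minimum in cortex, was 25.1-fold higher in control hippocampus.

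**Figure D3:**
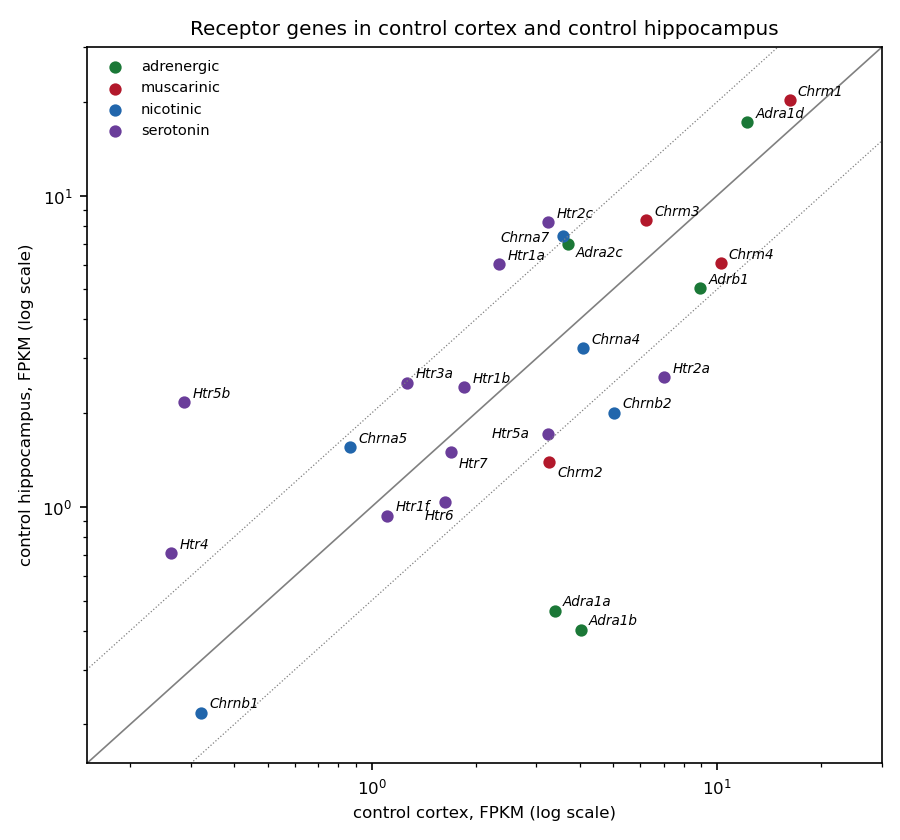
Level of 25 receptor genes in control cortex (x axis) against control hippocampus (y axis), in FPKM on log axes, with 1 pooled value per gene and tissue, the line of equal levels and dotted lines at 2-fold. Adra1a and Adra1b lie far on the cortex side, and Htr5b lies farthest on the hippocampus side.

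In cortex, TRF2 depletion was not accompanied by a called change in any receptor gene. The authors tested 17 rows of 16 members with Cuffdiff, and 0 were called, where 0.304% of all tested rows were. At an unadjusted deposited p under 0.05 the count was also 0, against 6.24% of all tested rows. The smallest p among the members in the authors' deposited table was that of Htr2a (log2 ratio 0.24, p = 0.0623, q = 0.499). Chrm4 came next (log2 ratio -0.24, p = 0.0736, q = 0.524 in the authors' deposited table).

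The ratios in cortex were mostly small. Of the 16 tested members 15 lay within 1.5-fold of control by their summed levels, as did 92.8% of all tested genes. The exception was Htr2c, with a difference of -58.2% (log2 ratio -1.26, p = 0.162, q = 0.634 in the authors' deposited table). Adra1a is among the 15 by its sum, but its 2 tested rows had log2 ratios of -1.19 and 2.37, neither called. Over the 30 members past the minimum the median log2 ratio was 0.03, against -0.02 over all genes past it. Higher values in the TRF2-depleted group were found for 18 of the 30, where 45.9% of all genes were higher. Of the 6 nicotinic subunits past the minimum 5 were lower, with Chrna4 at a log2 ratio of -0.56 (p = 0.181, q = 0.651 in the authors' deposited table), and the nicotinic sum was 15.1 FPKM in control cortex and 13.1 FPKM with depletion. The ratio of Adra2a rests on a control value near 0 and no fold is given.

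In hippocampus, the TRF2-depleted group likewise had no called receptor gene. Of 18 tested members 0 were called by Cuffdiff, where 0.163% of tested rows were, and 2 had an unadjusted p under 0.05, against 4.89% of tested rows. These were Htr7 (log2 ratio 0.54, p = 0.041) and Chrm5 (log2 ratio 0.77, p = 0.0483), each at q = 0.886 in the authors' deposited table. Chrna4 had a log2 ratio of 0.31 (p = 0.0704, q = 0.886 in the authors' deposited table), opposite in sign to its value in cortex, and the difference between the tissues was not tested.

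The ratio farthest from 0 among tested members was that of Chrnb2, at -9.52 on the log2 scale or -4.36 after adding 0.1 FPKM, and it did not pass (p = 0.359, q = 0.898 in the authors' deposited table). Of the 18 tested members 16 lay within 1.5-fold, as did 90.0% of all tested genes. At least a 2-fold difference was found for 6 of the 30 members past the minimum, where 9.89% of all genes reached it. They were Adra1a, Adrb3, Chrnb1 and Htr4 with higher values, and Adra2a and Chrnb2 with lower ones. Only Chrnb2 of these 6 was tested by the authors. The median of the 30 was 0.05, against 0.01 over all genes, and 19 were higher, where 51.7% of all genes were. By coupling class, 7 of 8 Gq genes past the minimum were higher, 4 of 8 Gi genes and 3 of 7 ion channel genes. The 6 Gs-coupled genes summed to 8.87 FPKM in control hippocampus and 11.8 FPKM with depletion, with 5 of 6 higher. The authors tested 2 of the 6, with 0 called. Adrb3, among the 5, passed the minimum only through the TRF2-depleted group, so its direction is set by the minimum.

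The DKO condition was compared with the same hippocampal controls, so its ratios and those of the TRF2-depleted group share their denominator. Of 19 tested members 0 were called by Cuffdiff, where 0.181% of tested rows were. An unadjusted p under 0.05 was found for 3, or 15.8%, against 6.71% of tested rows. Htr2c was lower (log2 ratio -0.37, p = 0.00565, q = 0.497), and Chrm3 (log2 ratio 0.31, p = 0.0188, q = 0.767) and Chrna4 (log2 ratio 0.33, p = 0.0434, q = 0.886) were higher in the authors' deposited table. None of the 3 passed the threshold.

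The families differed in the share of their genes that were higher in DKO than in control, and no gene was called in any of them. All 5 muscarinic genes and all 8 adrenergic genes past the minimum had higher values, with medians of 0.31 and 0.32 on the log2 scale. Adrb3, 1 of these 8, passed through TRF2-depleted hippocampus alone and was at 0.0788 and 0.174 FPKM in control and DKO. Of these 8 adrenergic genes the authors tested 3, whose median was 0.15. Of the serotonin receptor genes 7 of 11 were higher, with a median of 0.11 and sums of 30.09 FPKM in control and 30.02 FPKM in DKO. Of the nicotinic subunits 2 of 6 were higher, with a median of -0.07, but the nicotinic sum was 15.2 FPKM in control and 15.4 FPKM in DKO. The muscarinic sum was 37.1 FPKM in control, 37.3 FPKM in TRF2-depleted and 42.1 FPKM in DKO hippocampus. Over all 30 members past the minimum the median was 0.18, against 0.02 over all genes, and 22 were higher, where 52.9% of all genes were. At least a 2-fold difference was found for 4 (Adra1b, Adrb3 and Chrnb1 higher, Htr4 lower), where 9.14% of all genes reached it, and the authors tested none of the 4. Adrb3 was under the minimum in both of these conditions and Htr4 in DKO, so their differences are partly set by it. Of the 19 tested members 17 lay within 1.5-fold, as did 90.1% of all tested genes, and the exceptions were Htr6 (log2 ratio 0.89, p = 0.0639) and Chrnb2 (log2 ratio -0.63, p = 0.679), each with its p from the authors' deposited table. CA pyramidal neuron genes were likewise higher in DKO for 12 of 15, with 0 called and sums of 308 and 338 FPKM. They were not alone: interneuron genes were higher for 16 of 20, thalamic neuron genes for 9 of 13 and microglial genes for 10 of 14. Dentate granule neuron genes were lower for 13 of 15. What part these cells had in the receptor values was not tested.

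The direct comparison of DKO with the TRF2-depleted group held the only called receptor gene. Htr2c (chromosome X from 146962513 to 147197277, mm10) was at 9.61 FPKM in TRF2-depleted and 6.33 FPKM in DKO hippocampus, with control between them at 8.20 FPKM. It fell by 34.2% (log2 ratio -0.60, p = 5e-05 and q = 0.0301 in the authors' deposited table). That p is the smallest value deposited and is not particular to Htr2c. The monoamine transporter gene Slc29a4, given below, had the same q in DKO against control, so these values do not rank Htr2c above other called rows. Of 19 tested members 1 was thus called, where 0.154% of tested rows were called and 0.0817% were called as lower. A second member had an unadjusted p under 0.05, against 4.79% of tested rows: Adra2c, at 6.31 and 7.85 FPKM (log2 ratio 0.31, p = 0.0493, q = 0.886 in the authors' deposited table).

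Of the 19 tested members 18 lay within 1.5-fold, as did 91.2% of all tested genes, with Htr2c as the exception. At least a 2-fold difference was found for 3 of the 30 past the minimum (Htr4 lower, Adra2a and Chrnb2 higher), where 8.26% of all genes reached it, and the authors tested none of the 3 in this comparison. The median of the 30 was 0.09, against 0.01 over all genes, and 18 were higher, where 51.4% of all genes were.

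**Figure D4:**
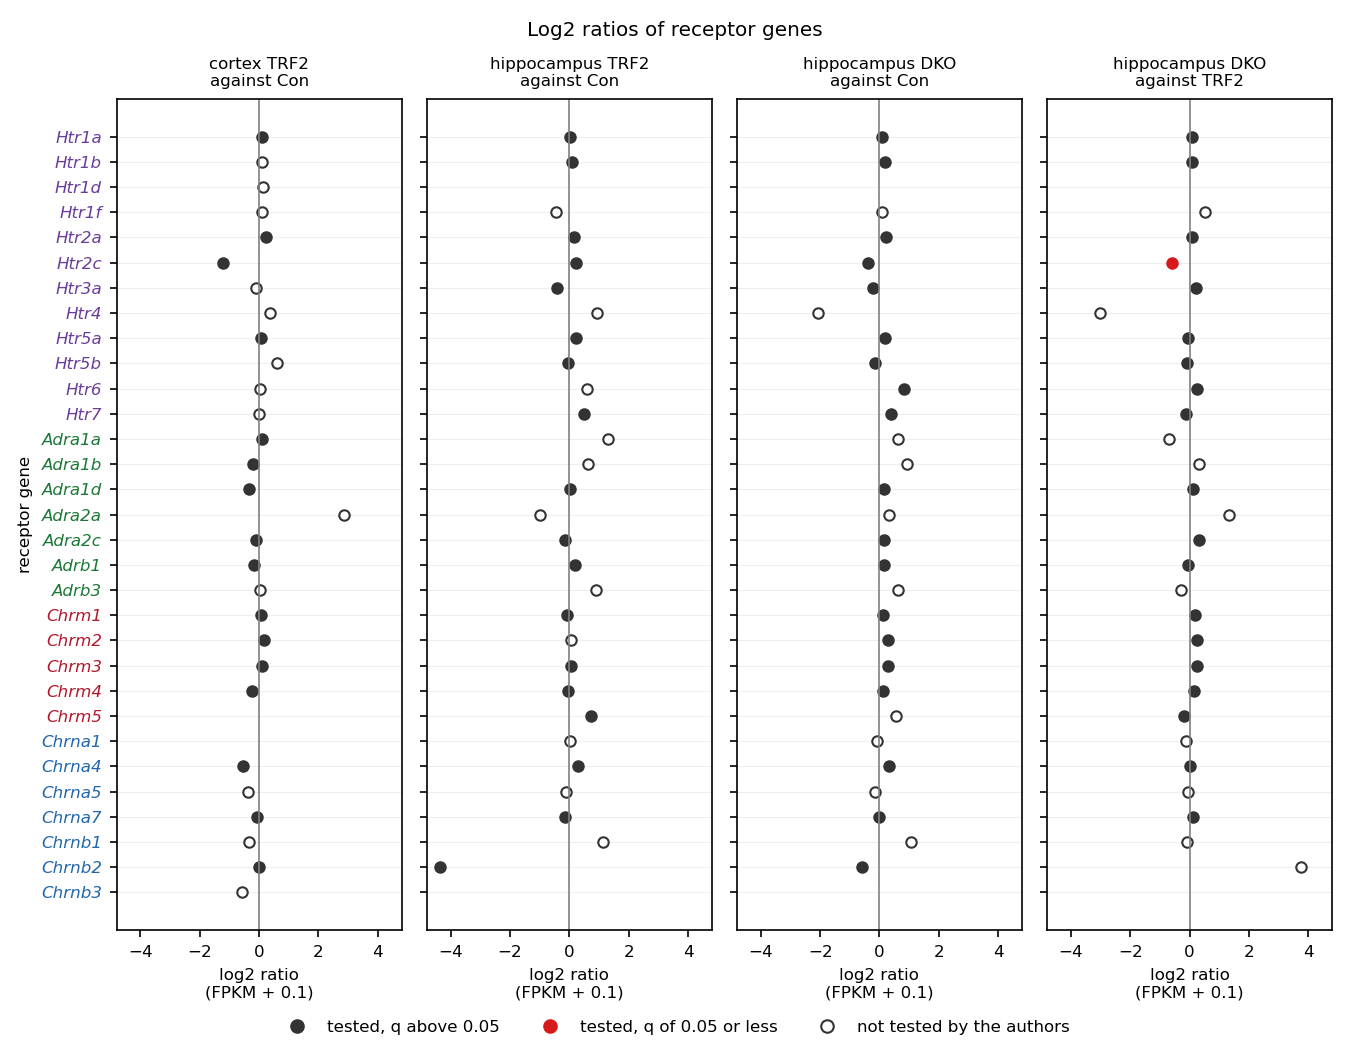
Log2 ratio of the 31 receptor genes in the 4 comparisons, computed after adding 0.1 FPKM, with filled points for genes the authors tested, open points for untested ones, red for a called gene and no point where a gene stayed under 0.2 FPKM in that tissue. Htr2c in DKO against TRF2 is the single red point, and the points farthest from 0 are those of Chrnb2.

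Genes of the choroid plexus, the epithelium that secretes cerebrospinal fluid, varied between the groups beside Htr2c. All 17 choroid plexus marker genes were found in the tables, and their sum was 103 and 5.32 FPKM in control and TRF2-depleted cortex and 290, 512 and 13.0 FPKM in control, TRF2-depleted and DKO hippocampus. Transthyretin (Ttr), the thyroid hormone carrier of this epithelium, gave 93.3 and 1.15 FPKM of it in cortex and 264, 472 and 5.52 FPKM in hippocampus, most of the sum in all but TRF2-depleted cortex and DKO hippocampus. The 16 others summed to 10.2 and 4.17 FPKM in cortex and to 26.1, 40.0 and 7.43 FPKM in hippocampus. Within each tissue Htr2c and these sums had the same order of conditions.

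Between DKO and TRF2-depleted hippocampus all 17 choroid plexus genes were lower (median log2 ratio -3.48), and 4 of 8 tested rows were called (Ttr, Kl, Sostdc1 and Clic6). Between DKO and control 16 of 17 were lower, with 4 of 6 tested rows called, and between TRF2-depleted and control hippocampus all 17 were higher, with 0 of 8 called. In cortex 14 of the 15 past the minimum were lower and 1 of 1 tested row, that of Ttr, was called. Otx2, Cldn2 and Kcne2 were listed at 0 in TRF2-depleted cortex and Steap1 in DKO hippocampus. The part of choroid plexus tissue in the Htr2c values was not tested.

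**Figure D5:**
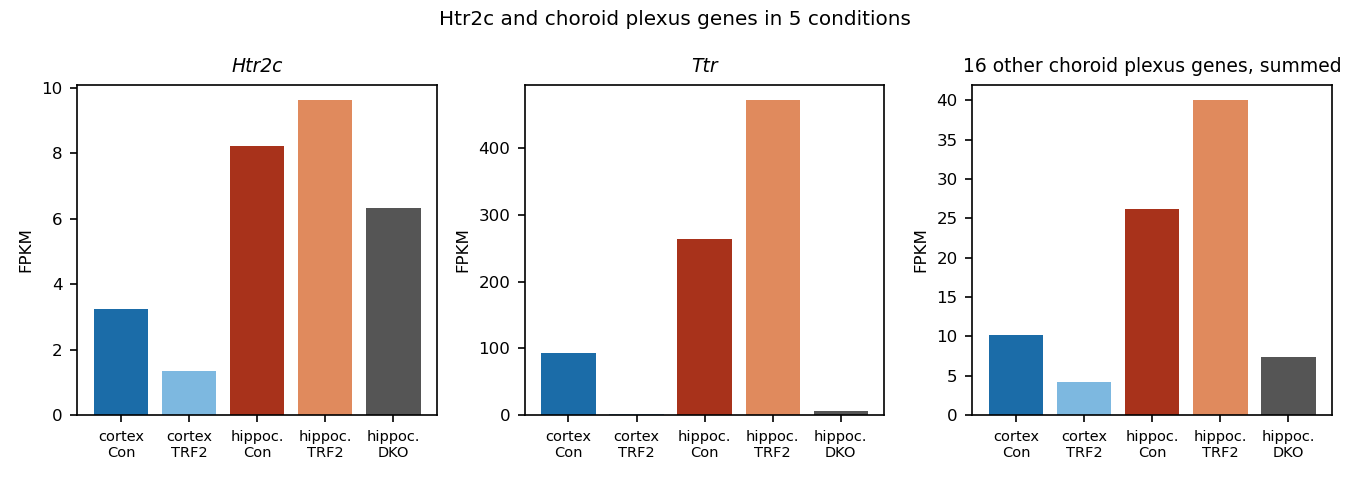
FPKM of Htr2c (left), of Ttr (middle) and of 16 other choroid plexus genes summed (right) in the 5 conditions, as bars of 1 pooled value each. Htr2c and the choroid plexus genes are lowest in TRF2-depleted cortex and DKO hippocampus within their tissues and highest in TRF2-depleted hippocampus.

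Other cell types also varied. Dentate granule neuron genes summed to 162, 99.9 and 107 FPKM in control, TRF2-depleted and DKO hippocampus, with 7 of 12 tested rows called lower in TRF2-depleted and 5 of 12 in DKO. Meningeal fibroblast genes summed to 217, 338 and 340 FPKM, and to 51.4, 73.1 and 56.6 FPKM without Ptgds, the most abundant of them. Of their tested rows, 1 of 11 was called higher in TRF2-depleted and 1 of 9 in DKO. Mural cell genes summed to 37.8, 49.9 and 46.0 FPKM. Thalamic neuron genes summed to 44.9, 46.9 and 49.99 FPKM, with 1 of 10 tested rows called higher in TRF2-depleted and 1 of 10 in DKO. In cortex, 11 of 11 striatal neuron genes past the minimum were higher in the TRF2-depleted group, with 0 called and sums of 65.3 and 85.7 FPKM. The part of these cell types in the receptor values was not tested.

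Genes that mark the source neurons had low levels. The 10 monoamine neuron genes summed to between 1.84 and 3.02 FPKM and the 8 cholinergic neuron genes to between 0.426 and 1.19 FPKM over the 5 conditions. At least 0.2 FPKM was reached in each tissue by 3 monoamine and 4 cholinergic neuron genes. The noradrenaline transporter Slc6a2 was listed at 0 in both cortex groups and in TRF2-depleted hippocampus, and the serotonin transporter Slc6a4 in control cortex and in TRF2-depleted and DKO hippocampus. Choline acetyltransferase (Chat) was at 0.134 FPKM in control cortex and 0.0280 FPKM in control hippocampus. The 11 medial habenula genes summed to between 21.2 and 34.8 FPKM, and to between 11.0 and 20.6 FPKM without Nkain4, the most abundant. Pou4f1, another of these 11, was listed at 0 in 4 conditions.

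Genes that make, move and break down the transmitters were followed as 3 lists. Of the 8 serotonin genes, 2 to 3 were tested in each comparison and 0 were called. The decarboxylase Ddc had the smallest p, at 1.85 FPKM in control and 1.00 FPKM in DKO hippocampus (p = 0.0125, q = 0.681 in the authors' deposited table). Of the 9 noradrenaline genes, 1 to 2 were tested, and 1 was called. The called gene was Slc29a4, the plasma membrane monoamine transporter, which was counted on this list and not on the serotonin list. It was at 6.19, 4.11 and 3.28 FPKM in control, TRF2-depleted and DKO hippocampus, and fell by 0.92 on the log2 scale from control to DKO (q = 0.0301 in the authors' deposited table).

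In the TRF2-depleted group Slc29a4 was lower but did not pass (log2 ratio -0.59, p = 0.00305, q = 0.415 in the authors' deposited table). Acetylcholinesterase (Ache), which ends cholinergic signals, was the 1 tested gene of the 7 acetylcholine genes, at 9.40 and 8.76 FPKM in cortex and 11.4, 13.1 and 13.7 FPKM in hippocampus, with 0 called. The smallest p of Ache was 0.0736, for DKO against control, in the authors' deposited table.

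Genes downstream of the receptors were followed as 3 further lists. Of 12 G protein alpha subunits 11 were tested, and Gna12 was called lower in TRF2-depleted cortex, at 16.1 FPKM in control and 12.4 FPKM with depletion (log2 ratio -0.38, p = 0.0002 and q = 0.0247 in the authors' deposited table). With the deposited p-values adjusted by Benjamini-Hochberg over the tested cortex rows, the value for Gna12 was 0.0954, which did not pass. In that comparison 9 of the 11 subunits past the minimum were lower, and in the 3 hippocampal comparisons 0 subunits were called. Gnas, the subunit that stimulates adenylyl cyclase, was at 138, 96.0 and 200.2 FPKM in control, TRF2-depleted and DKO hippocampus, and the smallest p of its rows was 0.0045 for DKO against TRF2 (q = 0.472 in the authors' deposited table).

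Adenylyl cyclases and phospholipases C beta, 13 genes, had 0 called in all 4 comparisons. Adcy1, a calcium-stimulated cyclase of neurons, was at 62.8, 46.7 and 50.4 FPKM in control, TRF2-depleted and DKO hippocampus (p = 0.0045 and q = 0.472 for TRF2-depleted, p = 0.029 and q = 0.846 for DKO, in the authors' deposited table). Receptor kinases and arrestins, 7 genes found of 9 symbols, had 0 called. Grk5, a kinase of activated receptors, was at 2.05, 2.59 and 3.17 FPKM in hippocampus (p = 0.00155 and q = 0.317 for DKO against control in the authors' deposited table).

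The nicotinic accessory proteins, 10 genes found of 12 symbols, had 0 called as well. In TRF2-depleted hippocampus 9 of 10 were higher (median log2 ratio 0.12), among them Lynx1, a toxin-like brake on nicotinic receptors, at 37.5 and 40.7 FPKM (p = 0.351, q = 0.895 in the authors' deposited table). Ly6e, of the same protein family, was at 38.9, 43.4 and 45.9 FPKM in control, TRF2-depleted and DKO hippocampus, with p = 0.0522 for DKO against control in the authors' deposited table.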

How the data were processed

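The deposited FPKM are the authors' pooled values, 1 per condition and coding-sequence row, per the file headers. Cuffdiff, Cufflinks, TopHat2 and CASAVA 1.8, with the build mm10, come from the submitters' processing notes. Other versions, settings, annotation and strand use were not given in the sources used here. Each row carries the authors' deposited p-value and q-value, used only where the row was marked as tested. Deposited cortex q-values differ from a Benjamini-Hochberg adjustment over that table by up to 0.335. Levels were summed over a gene's rows and log2 ratios recomputed without a pseudocount unless stated. Members reached 0.2 FPKM in 1 condition of the tissue. Full values are given for members with at least 1 FPKM, with p under 0.05, or among the 4 largest ratios of a comparison after adding 0.1 FPKM, and other members are named by range or count. The values of 1 member are not reported here and not drawn, but it stays in all counts and sums. Members, lists and coupling classes were chosen with earlier results of these data known. Nothing ties samples to separate animals, so the p-values reflect spread between samples that may be technical. Calculations used Python 3.11.15, numpy 2.4.6, pandas 2.3.3 and matplotlib 3.10.9, and sums, ratios and adjustment were checked on simulated data.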

Additional observations from a re-analysis of the deposited data

How the results depend on the processing

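The count of called members was unchanged at a deposited q of 0.1 and after adjustment over each comparison alone, in all 4 comparisons. It was also unchanged without a minimum FPKM and with the minimum on the mean. These last 2 settings could not change it, since all tested members lay above the minimum either way. At an unadjusted p under 0.05 it went from 0 to 2 for TRF2-depleted against control hippocampus, from 0 to 3 for DKO against control and from 1 to 2 for DKO against TRF2-depleted, and stayed at 0 in cortex. Over all cortex rows 29 were called by the deposited q and 14 by the own adjustment, which Ttr passed (0.0341) and Gna12 did not (0.0954). The median log2 ratio of members moved by over 0.05 in 2 of 28 settings, both for DKO against control, where 0.18 became 0.13 with no minimum and 0.1 FPKM added and 0.13 with 1 FPKM added. Of the recomputed ratios of tested members 215 kept their sign and 1 turned it, that of Adra1a in cortex (0.11, or -1.19 on its most abundant row). Many of these outcomes were fixed in advance, so the count is no measure of stability. Adding 0.1 FPKM to both values cannot turn a sign, and for a gene of 1 row the most abundant row is the sum. No paired analysis was possible because the tables hold 1 pooled value per condition, and for the same reason no replicate could be left out. Depth is unknown, so which low levels are above counting error cannot be told.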

Other observations

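Adra1a was the 1 member with more than 1 tested row, and its rows went opposite ways in cortex. One row had 2.85 FPKM in the control group and 1.25 FPKM after depletion (log2 ratio -1.19, p = 0.170), and another at 0.441 and 2.28 FPKM (log2 ratio 2.37, p = 0.0916), in the authors' deposited table. The sum over all 3 rows was 3.39 and 3.65 FPKM. In hippocampus the row that is higher in TRF2-depleted cortex was at 0, 0.0592 and 0.0467 FPKM in control, TRF2-depleted and DKO. The cause of the different division between rows was not tested.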
